A study of Sus scrofa with 15 samples.

Results

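Imprinted genes are expressed mainly or only from the copy inherited from 1 parent. The group described here is a list of 10 such genes, IGF2, H19, IGF2R, PEG3, PEG10, MEST, DLK1, PLAGL1, CDKN1C and NNAT, and its members are the entries of the deposited RNA-seq table that carry these symbols. Of the 10 genes, 9 had an entry among the 43294 features of the table, and H19 was not analysed here. The parent of origin is held in DNA methylation laid down in the germ cells and, for some genes, in repressive histone marks, and it must survive the reprogramming that follows fertilization or nuclear transfer. In mammals IGF2, PEG3, PEG10, MEST, DLK1, PLAGL1 and NNAT are known as paternally expressed genes, whereas CDKN1C and, in mice, IGF2R are expressed from the maternal copy. Paternally expressed members such as IGF2 mostly promote fetal and placental growth, and the maternally expressed IGF2R and CDKN1C restrain it. The reads were not assigned to a parental copy, so every value below is the total level of a gene and says nothing of which copy was read.

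RNA was measured in 15 libraries of pig material, with 3 libraries in each of 5 groups. PFF are primary porcine fetal fibroblasts at low passage, the cells whose nuclei were transferred. SCNT4c and SCNT8c are untreated 4-cell and 8-cell embryos made by somatic cell nuclear transfer of PFF into enucleated oocytes. SCNT4c-KG are 4-cell embryos that were injected after activation with mRNA of KDM4A, a demethylase of histone H3 lysine 9, and kept in GSK126, an inhibitor of EZH2, the enzyme that writes H3K27me3. SCNT4c-TDG are 4-cell embryos cloned from PFF that had been transfected with a doxycycline-inducible vector for TDG, a DNA glycosylase that takes part in DNA demethylation, and selected for it, and they received doxycycline before collection. Each embryo library came from 30 pooled embryos, so differences between single embryos cannot be seen. No library of embryos that received doxycycline without the vector was analysed here, and fewer cells, less RNA per cell and slower RNA decay cannot be told apart in these bulk values. Columns of the table were matched to samples by the sample titles. The sample descriptions disagree with this in part, since those of SCNT4c-KG carry the names that the SCNT4c columns have in the table, so every comparison of these groups rests on the titles. The labels also number the SCNT4c libraries in conflicting ways, so these are called a, b and c, and the description of SCNT8c replicate 3 carries the number 4.

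Each library's read counts were scaled by 1 factor of its own, and 100% of the values were whole multiples of 1 read, from which 12354649 to 22868038 reads per library were recovered. The SCNT4c-KG libraries were the shallowest, with 12354649 to 15390472 reads, against 17757929 to 22530486 in the other embryo libraries. Library sums of fibroblast markers were 3552703 to 3813895 in PFF, 4062 to 5279 in SCNT4c, 1461 to 2421 in SCNT4c-KG, 1186 to 1504 in SCNT4c-TDG and 1663 to 2008 in SCNT8c, and COL5A1 and FBN1 were at 0 in every embryo library. Sums of cumulus and granulosa cell markers were 1670 to 2031 in SCNT4c, 988 to 1279 in SCNT4c-KG, 852 to 1069 in SCNT4c-TDG and 1594 to 2256 in SCNT8c. They were 15482 to 18181 in PFF, where VCAN had a mean of 13810, so the list does not mark cumulus cells alone. In SCNT4c, INHBA alone had a mean of 1412. Sums of maternal oocyte transcripts were 320339 to 366316 in SCNT4c, 156787 to 249271 in SCNT4c-KG, 74223 to 80946 in SCNT4c-TDG, 71690.5 to 259621 in SCNT8c and at most 31.0 in PFF. GDF9, BMP15 and MOS of that list were at 0 in all 4 embryo groups, so a listed 0 was not read as absence of a transcript. KDM4A stood at 1429 to 1476 in SCNT4c-KG, 555 to 918 in SCNT4c-TDG and 134 to 313 in SCNT4c, and TDG at 49857 to 59944 in SCNT4c-TDG, 3886 to 4738 in SCNT4c-KG and 939 to 2541 in SCNT4c. Both were called higher in both treated groups (log2 fold changes of 3.01 and 2.08 for KDM4A and of 1.46 and 5.13 for TDG in SCNT4c-KG and SCNT4c-TDG). SCNT8c replicate 3 stood apart, with a mean Pearson r of 0.859 with the SCNT4c libraries and 0.772 with its own group across features, and values of SCNT8c are given for each library.

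Of the 9 entries, 7 reached a mean of 10 in the libraries compared, and limma was run on their log2(value + 1). A gene was called when its Benjamini-Hochberg adjusted p over all features was below 0.05 and its fold change exceeded 2. PEG10 and DLK1 stayed below the minimum. The plot of all 9 entries by library shows how far the replicates of each group spread.

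**Figure D1:**
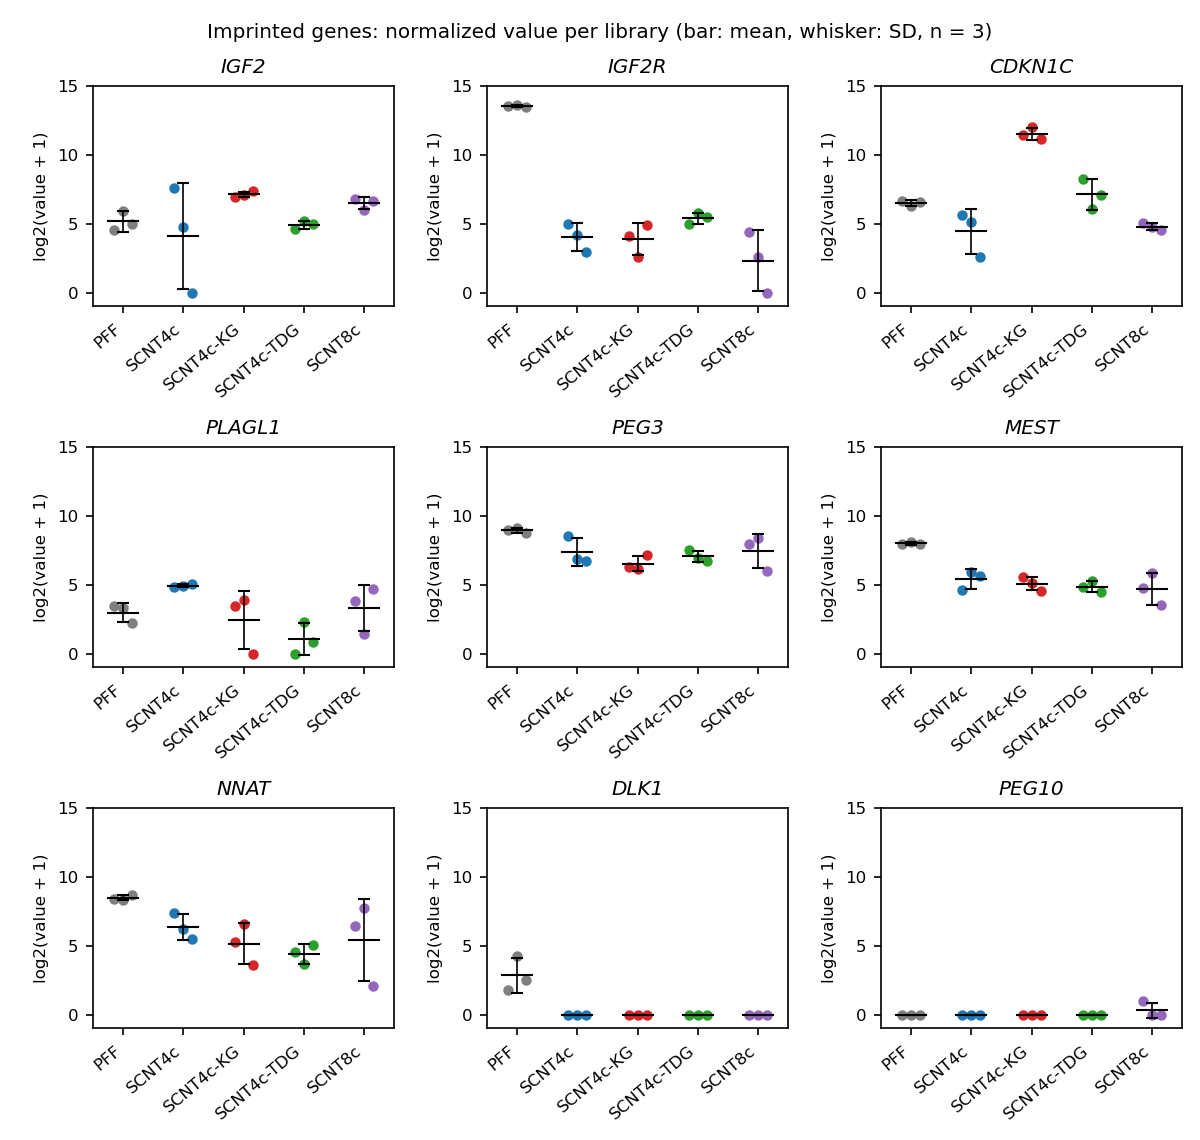
Normalized value of each imprinted gene in each library, as log2(value + 1), with 3 points for each of the 5 groups, the mean as a bar and the SD as a whisker. IGF2R is high only in the 3 PFF libraries, CDKN1C is highest in the 3 SCNT4c-KG libraries (2316 to 4061), and DLK1 and PEG10 are at or near 0 in every embryo library.

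CDKN1C, which encodes the cyclin-dependent kinase inhibitor p57 and slows the cell cycle, was the only member called higher in both treated groups. Its values were 48.9, 33.2 and 4.98 in SCNT4c libraries a, b and c, and 2733, 4061 and 2316 in SCNT4c-KG replicates 1, 2 and 3. All SCNT4c-KG libraries therefore lay above every SCNT4c library, by a factor of 105 between the group means. The SCNT4c values rest on only 62, 38 and 6 reads, so the size of this factor is uncertain. The log2 fold change was 7.09 ± 0.72 (SE, n = 3 against 3, adjusted p = 3.74e-06, limma), the rank 53 from the top of 18942 features tested. SCNT4c-TDG replicates 1, 2 and 3 held 304, 65.2 and 133 of CDKN1C. These libraries also lay above all SCNT4c libraries, with a log2 fold change of 2.68 ± 0.72 (SE, adjusted p = 0.0102, limma). Without SCNT4c-TDG replicate 1 the log2 fold change was 2.12 and the call was lost (adjusted p = 0.0646, limma). SCNT4c-TDG lay below SCNT4c-KG by a log2 fold change of -4.40 ± 0.72 (SE, adjusted p = 0.000967, limma), with no overlap between the libraries. Both treated groups were compared with the same SCNT4c libraries, and the 2 fold changes against SCNT4c are not independent of each other.

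PFF held 100, 76.4 and 95.3 of CDKN1C, and SCNT8c held 31.7, 26.6 and 22.2. The SCNT8c libraries lay within the range of SCNT4c (log2 fold change 0.35, 95% interval -1.20 to 1.89, adjusted p = 0.782, limma). SCNT4c lay below PFF in every library, yet its log2 fold change of -2.07 missed the threshold (adjusted p = 0.0513, limma), and 5 of 16 alternatives of the analysis called it. Ordered by mean level, CDKN1C ran from SCNT4c-KG through SCNT4c-TDG, PFF and SCNT4c to SCNT8c. SCNT4c-TDG and PFF overlapped in this order, as did SCNT4c and SCNT8c.

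The CDKN1C gene lies on chromosome 2 of Sscrofa11.1 at chr2:2019391-2022092 on the minus strand, and has 4 exons and 1 annotated transcript. The sequence before the annotated start of a gene is shown for 3 members whose levels moved most or that differ in CpG content, because the treatments act on histone and DNA methylation. The 3 sequences are the 250 bases upstream of the annotated start in RefSeq's Sscrofa11.1, written on the strand of the gene, with each CpG dinucleotide in capitals. They were read at chr2:2022093-2022342 (minus strand) for CDKN1C, at chr1:7472481-7472730 (minus) for IGF2R and at chr6:61307789-61308038 (minus) for PEG3.
CDKN1C: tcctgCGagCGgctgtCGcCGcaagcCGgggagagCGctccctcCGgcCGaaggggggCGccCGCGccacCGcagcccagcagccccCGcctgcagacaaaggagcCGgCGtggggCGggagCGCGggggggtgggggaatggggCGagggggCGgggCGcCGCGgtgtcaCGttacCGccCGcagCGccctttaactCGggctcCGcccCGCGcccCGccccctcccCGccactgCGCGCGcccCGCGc
IGF2R: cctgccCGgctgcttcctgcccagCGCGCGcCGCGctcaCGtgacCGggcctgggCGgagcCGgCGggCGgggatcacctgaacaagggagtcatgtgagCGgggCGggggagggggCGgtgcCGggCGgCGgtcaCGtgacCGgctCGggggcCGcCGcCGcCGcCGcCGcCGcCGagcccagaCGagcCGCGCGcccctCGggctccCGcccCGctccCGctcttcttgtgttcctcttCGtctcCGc
PEG3: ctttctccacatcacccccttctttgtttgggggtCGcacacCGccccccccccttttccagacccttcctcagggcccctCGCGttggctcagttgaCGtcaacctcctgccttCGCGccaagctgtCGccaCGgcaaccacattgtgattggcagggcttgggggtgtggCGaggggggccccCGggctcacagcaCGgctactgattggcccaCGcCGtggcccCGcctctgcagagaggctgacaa

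Across 19527 such windows the median number of CpGs was 12. CDKN1C held 38 and IGF2R 39, more than 95.3% and 95.9% of all windows, and DLK1 held 44. PEG10 held 18, PEG3 15, NNAT 11, IGF2 5 and MEST 2. The CpG-rich windows thus belonged to members that were high in SCNT4c-KG (CDKN1C), high only in PFF (IGF2R) and near 0 in all embryos (DLK1). Each window lies before the outermost annotated start, whereas IGF2 has 17 annotated transcripts, MEST 8, DLK1 5, PEG10 4 and NNAT 3. A window therefore need not hold the promoter in use, and the counts rank windows and not promoters. The letters TGCCGC, the core recognized by the imprint protector ZFP57 when methylated, were searched on both strands and occurred in 14.3% of all windows and, among the member windows described here, in that of NNAT. A match describes the letters in the window and not a bound site, and methylation was not measured in these libraries.

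Among the listed imprinted genes near CDKN1C, PHLDA2, which restrains placental growth, was also higher in both treated groups. Neighbours were picked by position, with their values known. PHLDA2 lies 35.6 kb from CDKN1C and held 4.73, 3.50 and 6.64 in SCNT4c, 140, 90.1 and 177 in SCNT4c-KG, and 746, 543 and 966 in SCNT4c-TDG. It rose by 4.50 ± 0.73 in SCNT4c-KG and by 6.98 ± 0.73 in SCNT4c-TDG on the log2 scale (SE, adjusted p = 0.000271 and 6.25e-06, limma). The order of the treated groups was thus the reverse of that of CDKN1C, and SCNT4c-TDG exceeded SCNT4c-KG by 2.47 ± 0.73 (SE, adjusted p = 0.0309, limma). TSSC4, 374 kb away, held 63.7, 134.5 and 37.0 in SCNT4c-KG against 6.31, 0 and 0 in SCNT4c, and was called higher in SCNT4c-KG (5.16 ± 1.18 SE, adjusted p = 0.00332, limma) but not in SCNT4c-TDG, where it held 5.02, 1.53 and 3.06. SLC22A18, the nearest neighbour at 10.3 kb, stayed below the minimum mean in the embryo fit and held 27.8, 24.1 and 17.1 in SCNT4c-KG, 5.02, 13.8 and 12.2 in SCNT4c-TDG, and 1.58, 0 and 0 in SCNT4c. CD81, at 378 kb, and NAP1L4, at 48.0 kb, had at most 1.63 in any embryo library, and OSBPL5, at 180 kb, was at 0 in all SCNT4c-KG libraries. KCNQ1, at 30.3 kb, held 49.7, 5.24 and 1.66 in SCNT4c, 31.0, 2.54 and 2.85 in SCNT4c-KG and 8.36, 0 and 1.53 in SCNT4c-TDG, below the minimum mean in the embryo fit, and ASCL2, at 459 kb, was at 0 in all embryo libraries but SCNT4c-KG replicate 2 (2.54). The raised levels were therefore found in some of the listed genes around CDKN1C and not in others.

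**Figure D2:**
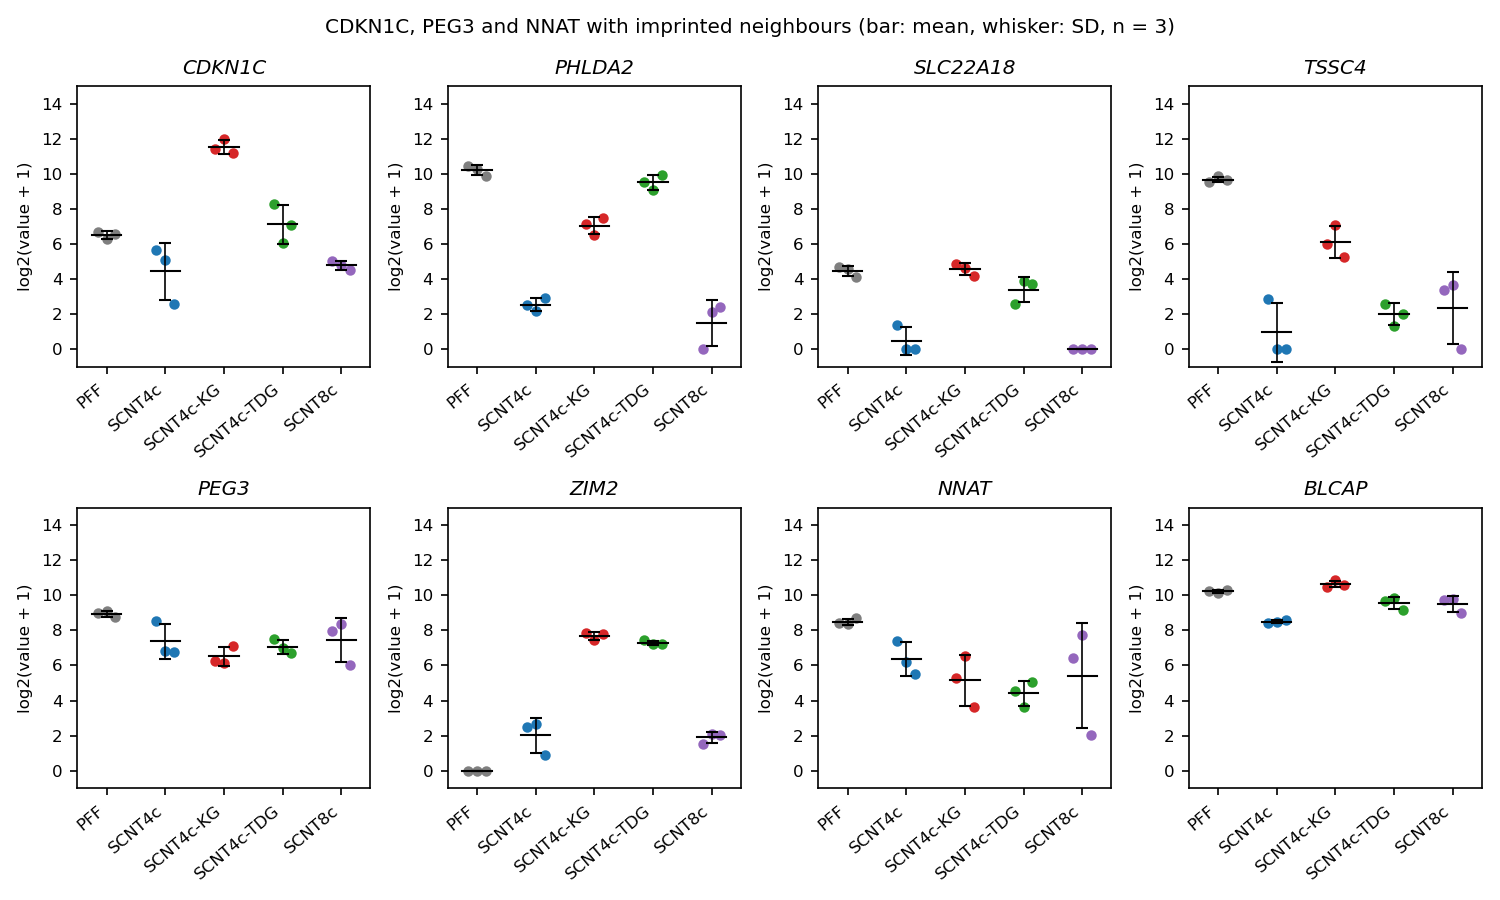
Normalized value per library, as log2(value + 1), of CDKN1C with 3 listed imprinted genes of its region, PEG3 with ZIM2, and NNAT with BLCAP, with the mean as a bar and the SD as a whisker (n = 3). CDKN1C is highest in SCNT4c-KG, PHLDA2 is higher in SCNT4c-TDG than in SCNT4c-KG, and ZIM2 and BLCAP rise in both treated groups while PEG3 and NNAT do not.

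IGF2 encodes the fetal insulin-like growth factor and lies 523 kb from CDKN1C, at chr2:1469183-1496417 on the minus strand. Its values were 189, 26.2 and 0 in SCNT4c libraries a, b and c. SCNT4c-KG held 124, 135 and 161, SCNT4c-TDG 23.4, 35.3 and 30.6, SCNT8c 110, 63.2 and 99.3, and PFF 22.0, 61.1 and 31.0. The SCNT4c-KG libraries were close to each other and lay inside the range of SCNT4c, and the log2 fold change of 3.02 ± 1.26 (SE) missed the threshold (adjusted p = 0.0709, limma). Of 17 alternatives 2 called it, namely leaving out SCNT4c library a (4.75, adjusted p = 0.00424, limma) and quantile normalization with all libraries (3.11, adjusted p = 0.0495, limma), and without library c the log2 fold change was 0.96. For SCNT4c-TDG the mean of the values was below that of SCNT4c (29.8 against 71.6), whereas the log2 fold change of 0.81, a difference of mean log2 values, was above 0. It had a 95% interval from -1.88 to 3.50 and changed sign without library c (-1.24), with edgeR (-0.87) and with DESeq2 (-0.89). SCNT4c-TDG lay below SCNT4c-KG in every library, but the difference of -2.21 ± 1.26 was not called in the fit of all embryo groups (adjusted p = 0.259, limma). A fit of only these 2 groups, without the widely spread SCNT4c libraries, called it (adjusted p = 0.00248, limma).

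IGF2R, the cation-independent mannose 6-phosphate receptor that takes up IGF2 for degradation, was the member with the largest difference between donor cells and embryos. PFF held 11707, 12703 and 11448, against 30.0, 17.5 and 6.64 in SCNT4c, and the log2 fold change of SCNT4c against PFF was -9.51 ± 0.50 (SE, adjusted p = 8.84e-06, limma). The remaining embryo libraries held 16.3, 5.08 and 28.5 in SCNT4c-KG, 30.1, 52.9 and 43.6 in SCNT4c-TDG, and 19.6, 4.99 and 0 in SCNT8c. These values rest on few reads: 38, 20 and 8 in SCNT4c, 10, 4 and 20 in SCNT4c-KG, 36, 69 and 57 in SCNT4c-TDG, and 21, 6 and 0 in SCNT8c. SCNT4c-TDG lay above SCNT4c in every library by 1.37 ± 1.08 (SE), which was not called (adjusted p = 0.346, limma). The table also lists an assembled transcript without a gene name at the same locus. It held 20.5, 40.2 and 6.64 in SCNT4c and 123, 135 and 93.3 in SCNT4c-TDG, and was called higher there (2.63 ± 0.85 SE, adjusted p = 0.0264, limma). The sum of both entries rose by 2.18, just short of the threshold (adjusted p = 0.0506, limma). SCNT4c-KG did not differ from SCNT4c in either entry beyond the spread (log2 fold change -0.16 and 0.60).

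The wider IGF axis, a list of 23 ligands, receptors, binding proteins and mRNA-binding factors, held 11 genes that were tested in the embryos. Of these, 1 was called higher and 2 lower in SCNT4c-KG (27.3%, against 37.2% of all features), with a median log2 fold change of -0.18. In SCNT4c-TDG 0 were called higher and 4 lower (36.4%, against 33.3% of all features), with a median of -0.25. The median of all features was -0.30 and -0.26 in these comparisons. With genes summed with assembled transcripts of their locus, 3 of 12 were called higher and 3 lower in SCNT4c-KG and the median turned to 0.86, and in SCNT4c-TDG the median turned to 0.01 with equal totals. IGF2BP3, which binds IGF2 mRNA, held 54616 to 78575 in SCNT4c, 13462 to 17874 in SCNT4c-KG and 10078 to 12582 in SCNT4c-TDG, and fell in both, with log2 fold changes of -2.15 and -2.56 (adjusted p = 0.000157 and 3.7e-05, limma). M6PR, the small mannose 6-phosphate receptor, rose in SCNT4c-KG by 1.82 ± 0.24 (SE, adjusted p = 4.42e-05, limma), and IGFBP5, an IGF-binding protein, fell in both. In SCNT4c against PFF, 3 of 17 genes tested were called higher and 12 lower (88.2%, against 78.2% of all features), led by IGFBP2, IGFBP4 and IGFBP7, with log2 fold changes of -13.03, -10.83 and -9.48.

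PLAGL1, a zinc finger transcription factor that halts the cell cycle and regulates other imprinted genes, was the only member called higher in SCNT4c than in PFF. SCNT4c held 26.8, 29.7 and 32.4, and PFF held 9.77, 8.92 and 3.58 (log2 fold change 1.96 ± 0.41 SE, adjusted p = 0.00483, limma), a call that quantile normalization lost (0.55, adjusted p = 0.272, limma). It was lower in both treated groups, at 9.80, 14.0 and 0 in SCNT4c-KG and 0, 3.84 and 0.765 in SCNT4c-TDG. SCNT8c held 13.1, 1.66 and 24.3, all below the SCNT4c libraries, a difference that was not called (-1.64, adjusted p = 0.376, limma). These values rest on few reads: 34, 34 and 39 in SCNT4c, 6, 11 and 0 in SCNT4c-KG, and 0, 5 and 1 in SCNT4c-TDG. The fall in SCNT4c-TDG was called (-3.90 ± 1.20 SE, adjusted p = 0.0205, limma), and 6 of 16 alternatives lost the call, with an adjusted p of up to 0.0846. Among them were edgeR (adjusted p = 0.0751) and the fits without SCNT4c library b or c or without SCNT4c-TDG replicate 1 or 3. The difference of -2.49 ± 1.20 (SE) in SCNT4c-KG was not called (adjusted p = 0.112, limma).

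Most reads of the PLAGL1 locus were listed under an assembled transcript whose merged locus on chromosome 1 starts upstream of the annotated gene. This transcript held 607, 512 and 556 in SCNT4c, 178, 179 and 82.6 in SCNT4c-KG, 93.7, 90.5 and 111 in SCNT4c-TDG, 107, 40.7 and 620 in SCNT8c, and 35.4, 20.4 and 28.6 in PFF. It was called lower in SCNT4c-KG (-2.00 ± 0.72 SE, adjusted p = 0.0389, limma) and in SCNT4c-TDG (-2.50 ± 0.72 SE, adjusted p = 0.0147, limma), and higher in SCNT4c than in PFF (4.29 ± 0.26 SE, adjusted p = 1.64e-05, limma). With both entries summed, PLAGL1 was called lower in SCNT4c-KG as well (-2.02, adjusted p = 0.0369, limma). The transcript has no gene name in the table, and whether it is spliced to PLAGL1 was not tested. In SCNT8c, replicate 3 lay above all SCNT4c libraries in this transcript and the other replicates lay below them.

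**Figure D3:**
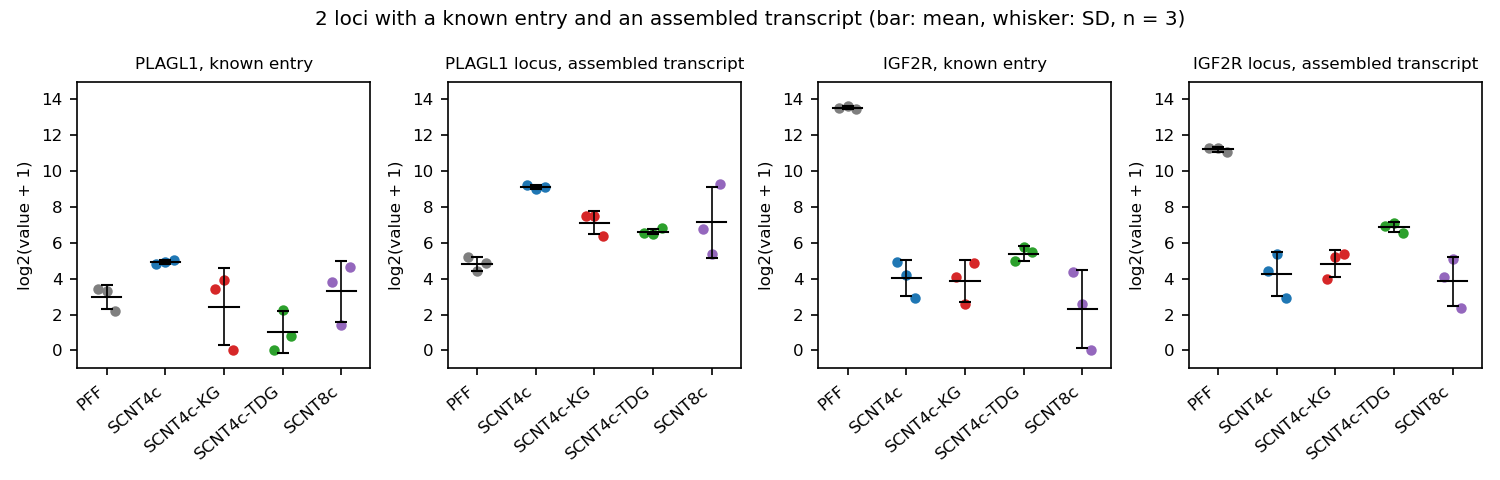
Known entry and assembled transcript of the PLAGL1 and IGF2R loci, each as log2(value + 1) per library in 5 groups, with the mean as a bar and the SD as a whisker (n = 3). Both PLAGL1 entries are lower in the treated groups than in SCNT4c, and the IGF2R assembled transcript is higher in SCNT4c-TDG (93.3 to 135) than in SCNT4c (6.64 to 40.2).

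PEG3, MEST and NNAT, all paternally expressed in mammals, were lower in SCNT4c than in PFF and were not called between embryo groups in the fit of all 12 embryo libraries. PEG3, a zinc finger protein of fetal growth and maternal behaviour, held 501, 545 and 437 in PFF and 365, 114 and 106 in SCNT4c (log2 fold change -1.58 ± 0.50 SE, adjusted p = 0.0247, limma). This call was lost in 9 of 16 alternatives, among them edgeR (-0.62) and DESeq2 (-0.58). MEST, an enzyme of the alpha/beta hydrolase family, held 250, 276 and 243 in PFF and 23.7, 61.2 and 49.8 in SCNT4c (-2.59 ± 0.38 SE, adjusted p = 0.00092, limma), a call kept in all 16 alternatives. NNAT, a small membrane protein of the endoplasmic reticulum, held 337, 326 and 409 in PFF and 167, 73.4 and 44.0 in SCNT4c (-2.11 ± 0.49 SE, adjusted p = 0.00714, limma), also kept in all 16.

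In the treated and older embryos these 3 genes varied between replicates by as much as between groups. PEG3 held 76.8, 69.8 and 140 in SCNT4c-KG, 181, 124 and 104 in SCNT4c-TDG, and 249, 327 and 63.4 in SCNT8c. MEST held 45.7, 33.0 and 22.8 in SCNT4c-KG, 27.6, 36.8 and 20.7 in SCNT4c-TDG, and 26.1, 56.5 and 10.6 in SCNT8c. NNAT held 37.6, 92.6 and 11.4 in SCNT4c-KG, 22.6, 11.5 and 32.1 in SCNT4c-TDG, and 85.9, 214 and 3.17 in SCNT8c. SCNT8c replicate 3 had the lowest value of its group in each of the 3 genes. NNAT in SCNT4c-TDG lay below all SCNT4c libraries, but its difference of -1.95 had a 95% interval from -4.48 to 0.58 (adjusted p = 0.217, limma). A fit of only these 2 groups called it (adjusted p = 0.023, limma).

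The neighbours of PEG3 and NNAT moved differently from them. ZIM2, a zinc finger gene 88.2 kb from PEG3, held 4.73, 5.24 and 0.83 in SCNT4c, 225, 171 and 218 in SCNT4c-KG, and 171, 150 and 148 in SCNT4c-TDG. It rose by 5.66 ± 0.70 and 5.28 ± 0.70 on the log2 scale (SE, adjusted p = 2.57e-05 and 5.36e-05, limma) and was at 0 in all PFF libraries. NNAT lies within the bounds of BLCAP, on the opposite strand, and BLCAP rose by 2.14 ± 0.32 in SCNT4c-KG and by 1.07 ± 0.32 in SCNT4c-TDG (SE, adjusted p = 0.000135 and 0.018, limma). The strand setting of the counting is not given in the sources used here, so reads of BLCAP and NNAT may not be fully separated. MEST shares its merged locus with COPG2, CEP41 and several other entries, and was therefore not summed. An assembled transcript there held 246, 411 and 494 in SCNT4c, more than MEST itself, 129, 181 and 142 in SCNT4c-KG, 499, 562 and 358 in SCNT4c-TDG, 48.5, 70.7 and 152 in SCNT8c, and 103, 110 and 112 in PFF. It was called lower in SCNT4c-KG (-1.30, adjusted p = 0.0408, limma) and SCNT8c (-2.18, adjusted p = 0.0245, limma) and, unlike MEST, higher in SCNT4c than in PFF (1.76, adjusted p = 0.0017, limma). Another assembled transcript of the locus moved the other way in SCNT4c-KG, at 27.8, 25.4 and 21.4 against 0, 4.37 and 14.9 in SCNT4c. That difference was not called (2.54, adjusted p = 0.0709, limma). To which genes of the locus these transcripts belong was not tested.

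DLK1, a transmembrane ligand related to those of Notch, held 2.44, 17.8 and 4.77 in PFF, from 2, 14 and 4 reads. It was at 0 in all 12 embryo libraries, where 3 reads, the upper limit that a count of 0 allows, would equal 2.30 to 4.90. PFF replicate 2 lay above all of these limits, replicate 3 above all but the 4.90 of SCNT4c-KG replicate 1, and replicate 1, with 2 reads, was itself below 3 reads. PEG10, a gene derived from a retrotransposon and needed for the placenta, had 1 read in SCNT8c replicate 1 and 0 in the other 14 libraries. An assembled transcript at its locus held 13.4, 31.8 and 29.8 in PFF, 4.90 in SCNT4c-KG replicate 1 and 0 in all other libraries.

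Counted over the group, 1 of the 7 members tested was called in SCNT4c-KG against SCNT4c, where 37.2% of all features were called (17.6% higher and 19.6% lower). In SCNT4c-TDG against SCNT4c, 2 of 7 were called, 1 in each direction, against 33.3% of all features (15.7% higher and 17.6% lower). Between the treated groups 1 of 7 was called, in the lower direction, against 16.2% of all features (7.07% higher and 9.13% lower). In SCNT8c against SCNT4c 0 of 7 were called by limma, against 5.79% of all features (2.62% higher and 3.16% lower). None had an unadjusted p under 0.05 there, and edgeR and DESeq2 called 0 as well, also without SCNT8c replicate 3 in limma. In SCNT4c against PFF 5 of 7 were called, 1 higher and 4 lower, against 78.2% of all features (39.7% higher and 38.5% lower). Libraries did not overlap for 2, 4, 3, 1 and 6 of the 7 members in these comparisons, against 53.9%, 58.4%, 44.4%, 23.5% and 84.5% of all features. The counts of the members were thus near or below those of all features. For a single gene, an exact permutation test of 3 libraries against 3 (two-sided) cannot give a p below 0.1, the value each member without overlap reached.

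**Figure D4:**
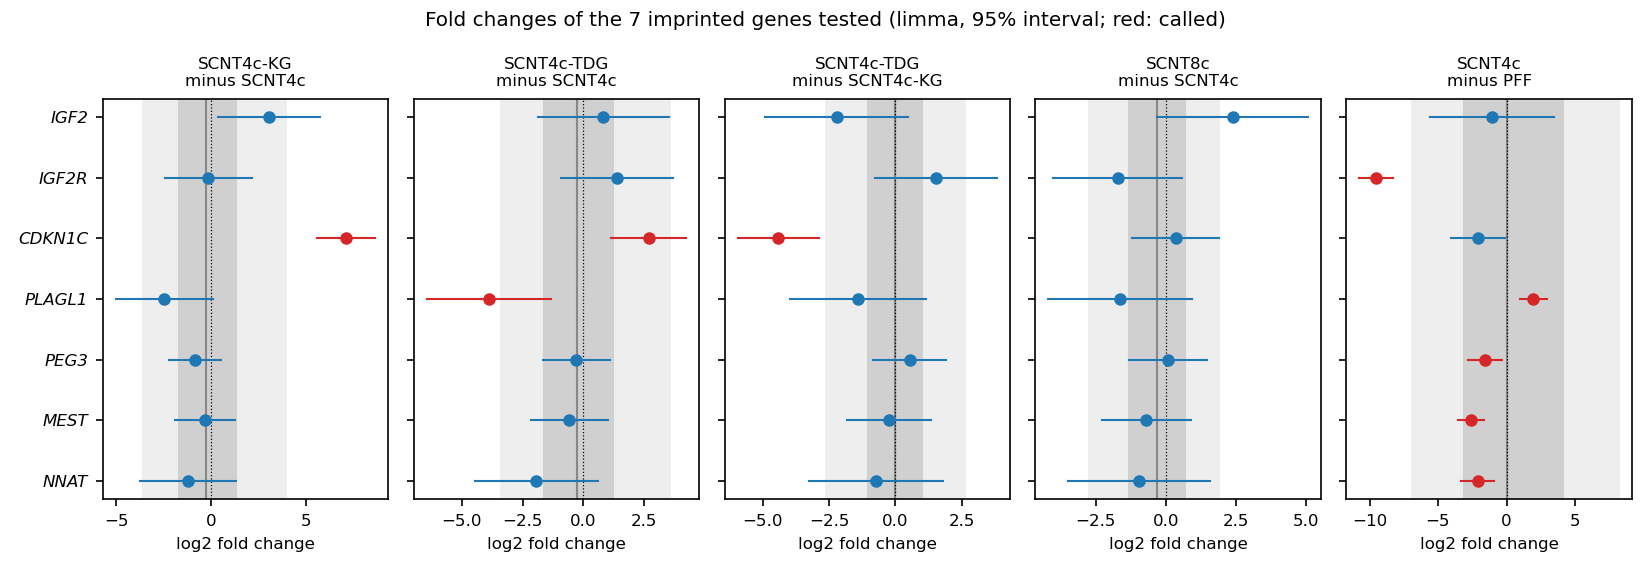
Log2 fold change of the 7 imprinted genes tested in each of 5 comparisons, with the 95% interval from limma as a line and called genes in red. Dark and light grey bands hold the middle 50% and 90% of all features tested and the grey line their median. CDKN1C stands to the right of the light band in SCNT4c-KG against SCNT4c (7.09), and IGF2R to the left of it in SCNT4c against PFF (-9.51).

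Levels of different genes were ordered roughly, per kilobase of annotated exon. The exons of all annotated transcripts were joined, giving 16.3 kb for MEST (8 transcripts) and 13.6 kb for PLAGL1 (29), against 1.89 kb for CDKN1C (1). Genes with many transcripts, or with reads listed under an assembled transcript, can thus be placed too low. IGF2R led in PFF with 1580 ± 87.7 (SD, n = 3). NNAT followed with 151 ± 19, PEG3 with 51.3 ± 5.62 and CDKN1C with 47.9 ± 6.64, the last pair within their spread. In SCNT4c NNAT led with 40.1 ± 27.2, followed by PEG3 with 20.3 ± 15.3, CDKN1C with 15.4 ± 11.8 and IGF2 with 9.77 ± 13.9, and these neighbours did not differ beyond their spread. In SCNT4c-KG CDKN1C led with 1610 ± 482, far above NNAT with 19.9 ± 17.5 and IGF2 with 19.1 ± 2.60. In SCNT4c-TDG CDKN1C led with 88.6 ± 65.2, ahead of PEG3 with 14.2 ± 4.17.

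The members did not follow each other across the embryos. Over the 12 embryo libraries, Pearson r of log2(value + 1) for their 21 pairs ran from -0.447 (IGF2R and PLAGL1) to 0.591 (PEG3 and NNAT). The points share libraries, depth and treatment groups, so these are descriptions. Among 9806 named genes with a mean of at least 10, those most like CDKN1C were PSMC3, a proteasome subunit (r = 0.982), DNMT1, the maintenance DNA methyltransferase (r = 0.982), and ZCCHC17 (r = 0.971). DNMT1 held 11.8, 4.37 and 1.66 in SCNT4c, 310, 367 and 192 in SCNT4c-KG and 21.7, 21.5 and 22.9 in SCNT4c-TDG, in the same order of groups as CDKN1C. The gene most like IGF2 was NDN (r = 0.932), itself imprinted, with 30.8, 14.0 and 0 in the SCNT4c libraries against 32.7, 44.4 and 34.2 in SCNT4c-KG. IGF2R was most like ADGRG6 (r = 0.961), PEG3 like TPP1 (r = 0.933), PLAGL1 like CPO (r = 0.947), NNAT like AGAP1 (r = 0.895) and MEST like LIMD1 (r = 0.866).

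A list of 50 other imprinted genes, of which 42 had an entry, was counted in the same way. Of the 27 tested in the embryos, 9 were called higher and 2 lower in SCNT4c-KG (40.7%, against 37.2% of all features, 17.6% higher and 19.6% lower), with a median log2 fold change of 1.07 against -0.30 for all features. In SCNT4c-TDG 9 were called higher and 2 lower as well (40.7%, against 33.3% of all features, 15.7% higher and 17.6% lower), with a median of 1.07 against -0.26. With genes summed with assembled transcripts of their locus, 28 were tested and the medians were 0.70 in SCNT4c-KG and 1.05 in SCNT4c-TDG. Besides PHLDA2 and ZIM2, PON2, PON3, GRB10 and BLCAP were called higher in both treated groups. Some of these genes passed the filter through the groups in which they were high. ZIM2, for example, had means of 3.60 in SCNT4c and 2.79 in SCNT8c, against 205 in SCNT4c-KG and 156 in SCNT4c-TDG. The counts and medians include such genes, and the same filter applied to all features. GRB10, an adaptor that restrains insulin and IGF signalling, rose by 3.33 ± 0.72 and 3.24 ± 0.72 (SE, adjusted p = 0.0023 and 0.00307, limma). TFPI2, a protease inhibitor found in the placenta, held 2801 to 6918 in SCNT4c, 426 to 557 in SCNT4c-KG and 45.2 to 284 in SCNT4c-TDG, and fell in both, with log2 fold changes of -3.38 and -5.29. TSSC4 was called higher in SCNT4c-KG and not in SCNT4c-TDG, and the difference between the treated groups was itself called (-4.13 ± 1.18 SE, adjusted p = 0.0261, limma). UBE3A and MKRN3, of the Prader-Willi and Angelman region, were called higher in SCNT4c-TDG and not in SCNT4c-KG, but their differences between the treated groups of 1.43 and 3.66 were not called (adjusted p = 0.066 and 0.0576, limma). In SCNT8c 4 were called higher and 2 lower (22.2%, against 5.79% of all features), but limma called 0 in a fit of only these 2 groups and edgeR 3, and limma called 11 without SCNT8c replicate 3, and at most 1 when any other of these libraries was left out. In SCNT4c against PFF 7 of 31 were called higher and 22 lower (93.5%, against 78.2% of all features), with a median of -3.10 against 0.07 for all features, led by MAGEL2 and GRB10, with log2 fold changes of -9.41 and -9.39. MAGEL2 was at 0 in every embryo library and passed the filter through PFF alone (mean 679).

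Of 29 factors that lay down, protect or erase imprints, 17 were tested in the embryos. In SCNT4c-KG 8 were called higher and 2 lower (58.8%, against 37.2% of all features, 17.6% higher and 19.6% lower), with a median log2 fold change of 1.04 against -0.30 for all features. In SCNT4c-TDG 7 were called higher and 3 lower (58.8%, against 33.3% of all features, 15.7% higher and 17.6% lower), with a median of 1.12 against -0.26. With genes summed with assembled transcripts of their locus, 20 were tested and the medians were 0.49 in SCNT4c-KG and 0.78 in SCNT4c-TDG. DNMT1 rose by 5.63 ± 0.75 in SCNT4c-KG and by 2.02 ± 0.75 in SCNT4c-TDG (SE, adjusted p = 4.95e-05 and 0.0492, limma). Its entry is uncertain, since it shares a merged locus with S1PR2 and an assembled transcript and held only 16.6 to 22.0 in PFF. That transcript held 114, 111 and 115 in SCNT4c, 459, 421 and 312 in SCNT4c-KG and 207, 226 and 218 in SCNT4c-TDG. S1PR2 did not rise with it, at 215, 51.6 and 99.6 in SCNT4c, 26.1, 52.0 and 17.1 in SCNT4c-KG and 82.8, 53.7 and 43.6 in SCNT4c-TDG. ZNF445, a zinc finger protector of imprints, fell in both, with log2 fold changes of -2.32 and -1.54 (adjusted p = 0.00354 and 0.0371, limma). DNMT3B, a de novo DNA methyltransferase, fell in SCNT4c-KG (-2.92, adjusted p = 0.00408, limma) and was not called in SCNT4c-TDG (-1.58, adjusted p = 0.0879, limma), and its difference between the treated groups was not called either (adjusted p = 0.207, limma). DPPA3, which shields the maternal genome from demethylation and is also on the list of maternal oocyte transcripts, rose by 2.28 and 2.85 in the treated groups (adjusted p = 0.000672 and 0.000115, limma). KDM1B, a histone demethylase needed for maternal imprints in mouse oocytes, rose by 2.27 ± 0.79 in SCNT4c-KG and by 4.46 ± 0.79 in SCNT4c-TDG (SE, adjusted p = 0.0352 and 0.000583, limma). ZFP57 was at 0 in all 15 libraries. Ribosomal protein genes, listed to follow RNA composition, summed to 34304 to 57862 in SCNT4c, 164238 to 197128 in SCNT4c-KG and 59786 to 73520 in SCNT4c-TDG. The sums of the ribosomal protein list were thus higher in both treated groups than in SCNT4c, and those of the maternal transcript, fibroblast and cumulus and granulosa lists lower, without overlap of the libraries. Of 10 fibroblast markers tested, 2 were called higher and 5 lower in SCNT4c-KG (70%, against 37.2% of all features). For SCNT4c-TDG these were 1 and 4 (50%, against 33.3%). Of 12 maternal transcripts tested, 2 were called higher and 3 lower in SCNT4c-KG (41.7%), and 1 higher and 6 lower in SCNT4c-TDG (58.3%). Of 5 cumulus and granulosa markers tested, 1 was called higher and 2 lower in SCNT4c-KG (60%), and 0 higher and 1 lower in SCNT4c-TDG (20%). The lower sums thus did not hold for every gene of a list. The part of these lists in the changes of the imprinted genes was not tested.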

How the data were processed

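RNA-seq libraries of 3 replicates in each of 5 groups were used. Per the methods and the submitters' processing notes, reads were trimmed (Trimmomatic 0.39) and mapped with STAR 2.5.3a, Sscrofa11.1 being the genome. Transcripts were assembled with StringTie 2.1.2 and reads counted with HTSeq. The deposited values are a normalized signal, namely read counts scaled by 1 factor per library, and whole reads were recovered within a tolerance of 0.01. Of 43535 entries, 241 with a repeated identifier were removed. The overlap mode of HTSeq is not given in the sources used here. By default it leaves out reads that overlap 2 entries, which can understate genes that share a locus with an assembled transcript.

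Features were kept at a mean of 10 or more, and limma 3.58.1 (R 4.3.3) was run on log2(value + 1) with an intensity trend. The mean was taken over all libraries of a fit, so a feature high in a single group can pass through that group. The added 1 shrinks fold changes of low genes, whereas a single library near 0 can enlarge them. IGF2 in SCNT4c-KG, for example, had a log2 fold change of 3.02 but a ratio of group means of only 1.96. The 12 embryo libraries were fitted together, and SCNT4c and PFF in a fit of 6 libraries. Alternatives changed the pseudocount (0.1, 10), the filter (any value above 0, or a mean of 50), the scaling (quantile, equal totals) and the tool (edgeR 4.0.16 and DESeq2 1.42.0 on recovered reads). They also used 2 groups alone, dropped the fold change limit, summed a gene with assembled transcripts of its locus, added a replicate block, or left out each library. The same 9 libraries without the block were added after the data were seen. The limma and edgeR scripts were tested on simulated reads. The labels do not say whether replicates came from separate nuclear transfer sessions, so p-values measure the spread between these libraries, which may be technical, and limits for a count of 0 cover counting error only.

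The members and gene lists were chosen with earlier results of these data known. From each other list, at most 4 called genes per comparison were named, those with the largest change among genes whose groups did not overlap and whose higher group mean reached 100. For each member, genes among the 3 with the highest Pearson r were named. Neighbours of members, and further listed genes, were named after their values were seen. Same-numbered libraries of SCNT4c-KG, SCNT4c-TDG and SCNT8c deviated from their group means with an r of -0.061 to 0.195, so numbers were not treated as pairs. An upstream sequence and the values that need it are not reported here.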

Additional observations from a re-analysis of the deposited data

How the results depend on the processing

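Of 586 alternative values for 35 fold changes of members, 533 kept their direction and side of the threshold, and no called value changed sign. CDKN1C in SCNT4c-KG was called in all 17 alternatives (log2 fold change 6.16 to 7.69), and its difference between the treated groups in all 19 (-4.97 to -3.87). Uncalled log2 fold changes that changed sign follow, with the range over single libraries left out. IGF2R in SCNT4c-KG reached 0.03 with edgeR, 0.07 with DESeq2, 0.37 when summed with its assembled transcript and -0.71 to 0.47 with 1 library left out. IGF2 in SCNT4c-TDG reached -0.08 with a pseudocount of 10, -0.87 with edgeR, -0.89 with DESeq2 and -1.24 to 2.54 with 1 library left out, and PEG3 there -0.62 to 0.27. MEST between the treated groups reached 0 with quantile normalization, 0.12 with equal totals and -0.48 to 0.01 with 1 library left out. In SCNT8c, PEG3 reached -0.38 to 0.79 and CDKN1C -0.58 to 0.95 with 1 library left out, and NNAT 0.32 with edgeR, 0.45 with DESeq2 and -2.12 to 0.73 with 1 library left out. IGF2 in SCNT4c against PFF reached 1.61 with edgeR, 1.65 with DESeq2 and -2.78 to 1.01 with 1 library left out. The causes were not tested.

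Members called in SCNT4c-KG numbered 2 with quantile normalization and with summed loci, and 1 to 2 with 1 library left out (2 without SCNT4c library a). In SCNT4c-TDG they numbered 3, NNAT among them, in the fit of 2 groups, 1 with a pseudocount of 0.1, a minimum mean of 50 or edgeR, and 0 to 2 with 1 library left out (0 without SCNT4c-TDG replicate 1, and 1 without its replicate 3 or SCNT4c library b or c). Between the treated groups 2 members were called in the fit of 2 groups, where 4989 features were called against 3070. With 1 library left out 1794 to 2521 features were called there, fewest without a SCNT4c-TDG replicate or SCNT4c-KG replicate 2. With the replicate block 2772 features and 2 members (CDKN1C and IGF2) were called, and 2 members without the block in the same 9 libraries, so the block itself changed no member's call. No paired analysis was possible for comparisons with SCNT4c because its columns carry no replicate number that matches the labels. Features called in SCNT8c numbered 1096, against 1662 with a pseudocount of 10, 601 with all features above 0, 2733 with DESeq2 and 0 in the limma fit of 2 groups, where 3582 had an unadjusted p under 0.05. With 1 library left out they ranged from 31 to 6133, the highest without SCNT8c replicate 3, and each of the other 5 libraries left out gave at most 234. A minimum mean of 50 gave 10020 features in SCNT4c against PFF, since fewer were tested.

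Other imprinted genes called numbered 7 in SCNT4c-KG with a minimum mean of 50. In SCNT8c they numbered 3 with edgeR, 0 in the fit of 2 groups and 0 to 11 with 1 library left out (11 without SCNT8c replicate 3, at most 1 without any of the others). Genes of the IGF axis called in SCNT4c-KG numbered 5 with all features above 0 and in the fit of 2 groups, and 6 with summed loci. In SCNT4c-TDG they numbered 8 in the fit of 2 groups and 2 to 5 with 1 library left out (2 without SCNT4c-TDG replicate 2). The median log2 fold change of all features in SCNT4c against PFF moved from 0.07 to 0.92 with equal totals, 0.96 with edgeR and 1.01 with DESeq2. The share of called features that were higher moved in SCNT8c from 45.3% to 57.0% with quantile normalization, 79.5% with edgeR and 71.8% with DESeq2, and between the treated groups from 43.6% to 64.2% with equal totals. Low read numbers limit PLAGL1, IGF2R, DLK1 and PEG10 in all embryo groups. MEST had only 10 to 70 reads in the embryo libraries. Single libraries of other members were low as well, with 0 reads of IGF2 and 6 of CDKN1C in SCNT4c library c and 3 of NNAT in SCNT8c replicate 3.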
